A study of Mus musculus with 72 samples.

Results

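Heat shock proteins and J-domain chaperones were taken as every gene whose symbol begins with Hspa, Hspb, Hspd, Hspe, Hsph, Hsp90 or Dnaj, leaving out 7 symbols that end in -ps or in -ps and a number. The rule found 70 of the 24091 genes counted in either tissue. All 70 stood in the liver table of 22823 genes, and 67 stood in the table of 15759 genes from the suprachiasmatic nucleus (SCN), where Dnajb7, Dnajc22 and Hspb2 were not listed. The filter on low counts kept 68 of the 70 members in liver, leaving out Dnajb3 and Dnajc6, and all 67 in SCN. The prefix also takes in Hspbp1, which acts on the nucleotide exchange of HSP70, and Hspbap1, a binding partner of Hspb1, neither of which is itself a chaperone.

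The study asked how a diet deficient in methionine and choline (MCD), a classical way to make the mouse liver fatty and inflamed, alters gene expression around the clock in the liver and in the SCN, the pair of cell clusters in the hypothalamus that act as the body's main clock. All mice were wild-type C57BL/6J, 8 to 12 weeks old on arrival and single-housed, and each ate the MCD diet or an isocaloric control diet freely for 11 days, of which 10 were in a light-dark cycle and the last in constant darkness. Tissue was taken every 4 h from circadian time (CT) 0, the start of the subjective day, to CT20, with CT12 the start of the subjective night. Polyadenylated RNA was sequenced from a piece of the left liver lobe and from SCN cut out of stained sections with a laser. Tissue, diet and time define 24 groups with 3 libraries each, which the labels give as 2 males and 1 female, although the growth protocol speaks of males only. That makes 72 libraries, 36 for each tissue and 18 for each diet within a tissue. The labels do not say outright that every library came from a separate mouse, so the p-values measure the spread between these libraries.

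Chaperones of the HSP70 family bind unfolded stretches of other proteins in cycles of ATP hydrolysis, J-domain proteins bring them their clients and trigger that hydrolysis, and HSP110 proteins exchange the nucleotide. HSP90 finishes the folding of kinases and steroid receptors, small heat shock proteins hold aggregating proteins without using ATP, and Hspd1 with Hspe1 form the folding chamber of mitochondria. The transcription factor HSF1 drives the cytosolic members through heat shock elements, while the unfolded protein response drives the members of the endoplasmic reticulum (ER) through ER stress elements. In mouse liver, cytosolic heat shock genes are known to rise each night with feeding and body temperature.

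Liver libraries held 52600280 to 86740552 counted reads and SCN libraries 23347789 to 79812461. All 6 SCN neuron markers (Vip, Avp, Prok2, Six6, Rorb and Rgs16) were in the SCN table, at 1620 to 4190 CPM in sum per library (CPM, a gene's reads relative to the size of its library), and only Rgs16 was in the liver table. The 5 hepatocyte markers summed to 54600 to 118000 CPM in liver, while 3 of them (Ttr, Apoa1 and Serpina1a) were not listed in SCN. The library labelled control CT08 a in liver went against its label: on a score over 1884 genes that separate the diets it stood at 1.11, against -1.4 to -0.456 in the other controls and 0.273 to 1.88 on MCD. For 18 of the 35 members whose level changed with the diet in liver, that library lay nearer the MCD median than the control median. Liver libraries also fell into 2 kinds by the mitochondrial gene mt-Nd6, 21 at 41.6 to 119 CPM (8 control, 13 MCD) and 15 at 414 to 925 CPM (10 control, 5 MCD). Results that moved without that library, or with a term for the kind of library, are given with both values.

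Promoter sequences are shown to let the response elements named above be seen in members that carry them; the genes with an ER stress element are taken up again with the ER chaperones. Hsph1, whose match lies after the start, is not printed. Of the 70 members, 56 had a window from 250 bases before to 50 after the start in a RefSeq promoter table (GRCm38.p6). A heat shock element, searched on both strands as 3 inverted repeats of GAA (GAA, any 2 bases, TTC, any 2 bases, GAA, or TTC, any 2 bases, GAA, any 2 bases, TTC), was found in 4 of the 56 members (7.14%; Hspd1, Hspe1, Hsph1 and Dnajb6) and in 0.662% of all 27025 genes with a window. The head-to-head genes Hspd1 and Hspe1 share the same stretch of sequence, so they are not separate cases. An ER stress element, CCAAT and CCACG with any 9 bases between them on either strand, was found in 3 of 56 (5.36%; Hspa5, Hsp90b1 and Dnajc3) and in 0.137% of all genes. The amino acid response element TGATGNAA was found in 1 member, Hspa14 (1.79%), and in 4.51% of all genes. Hspa1a, Hspa1b, Hspb1, Dnajb1 and Dnajb9 have a window in which none of these letters was found, and Hspa8, Hspa13, Hsp90aa1 and Hsp90ab1 are without an entry. These matches describe letters only.

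The sequences below run 5′ to 3′ on the strand of the gene, from the RefSeq table of build GRCm38.p6, with the matched element in capitals. In the shared Hspd1 and Hspe1 promoter both forms of the heat shock element overlap (chr1:55088053-55088082, + strand), and Dnajb6 has 1 match (chr5:29735844-29735873, + strand). Hspa5 (chr2:34772020-34772049, + strand) and Dnajc3 (chr14:118937682-118937931, + strand) each hold 1 ER stress element, and Hsp90b1 (chr10:86705510-86705694, - strand) holds 2 in opposite orientations.
Hspe1 promoter: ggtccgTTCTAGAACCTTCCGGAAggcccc
Dnajb6 promoter: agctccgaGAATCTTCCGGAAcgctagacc
Hspa5 promoter: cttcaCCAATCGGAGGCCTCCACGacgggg
Hsp90b1 promoter: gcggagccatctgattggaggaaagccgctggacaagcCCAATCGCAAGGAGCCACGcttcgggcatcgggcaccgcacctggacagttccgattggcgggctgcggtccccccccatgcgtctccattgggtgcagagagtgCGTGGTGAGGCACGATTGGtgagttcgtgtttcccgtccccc
Dnajc3 promoter: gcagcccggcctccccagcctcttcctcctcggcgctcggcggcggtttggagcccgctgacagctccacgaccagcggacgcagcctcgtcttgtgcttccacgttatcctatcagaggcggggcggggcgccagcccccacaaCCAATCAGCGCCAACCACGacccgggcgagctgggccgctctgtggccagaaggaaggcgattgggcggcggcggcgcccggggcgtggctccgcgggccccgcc

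In the liver the MCD diet raised the stress-inducible HSP70 genes Hspa1a and Hspa1b and the small heat shock gene Hspb1 by the largest amounts among the members called, and lowered the ER chaperone Hsp90b1, while the abundant cytosolic chaperones Hspa8 and Hsp90ab1 showed no change in their mean level that passed the test unless library totals replaced the TMM scaling. Of 68 members tested, 35 changed at an adjusted p below 0.05 (51.5%), 18 higher and 17 lower, when the 6 times were averaged (edgeR quasi-likelihood test, Benjamini-Hochberg over 20249 genes). Among all genes tested 46.6% changed, 25.3% higher and 21.2% lower, so the share of members is near the background of this strong diet effect. A member is called changed or rhythmic in what follows at that same threshold. No member's 18 control libraries were free of overlap with its 18 MCD libraries, beside 0.306% of all genes.

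**Figure D1:**
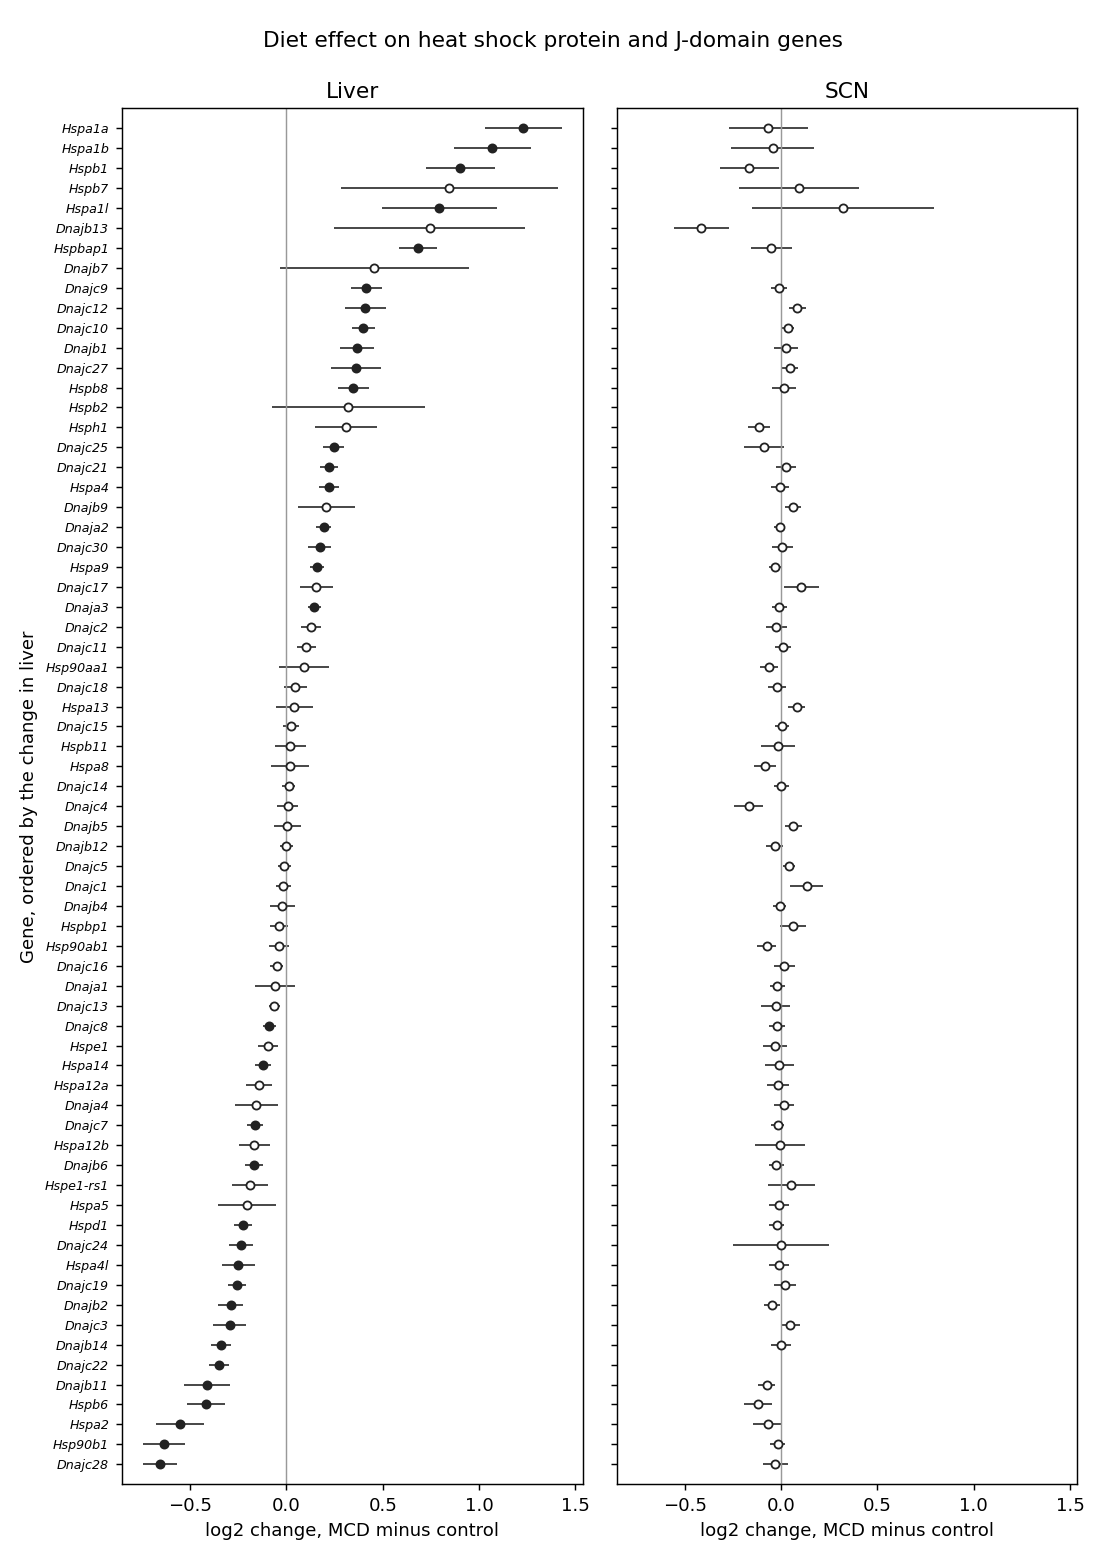
Diet effect (MCD minus control, log2, mean over 6 times, bars 1 SE) of the members in liver and SCN, with filled points for an adjusted p below 0.05. In liver Hspa1a, Hspa1b and Hspb1 lie farthest to the right and Dnajc28 and Hsp90b1 farthest to the left of the members named here, while in SCN no point is filled.

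Hspa1a, which encodes the HSP70 made on acute stress, stood at 1.69 CPM in the lowest, 6.12 in the median and 12.7 in the highest control liver library, and at 4.2, 13.1 and 28 CPM on MCD. The groups overlapped, but the MCD mean was the higher at 6 of 6 times and at 4 of them every MCD library lay above every control library. Its diet effect was 1.23 log2 (SE 0.199, adjusted p = 1.53e-05). The near-identical neighbour Hspa1b went from 3.6, 13.5 and 24.2 CPM on control to 8.83, 26.1 and 55.5 CPM on MCD, a diet effect of 1.07 log2 (SE 0.202, adjusted p = 0.000106). Reads that fit both copies could be divided between them in counting, so their 2 values are not independent. The third gene of that cluster, Hspa1l, gave 0.80 log2 (SE 0.3, adjusted p = 0.0315), and its call was lost without any 1 of 7 libraries, with an adjusted p of up to 0.0646.

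Hspb1, the small heat shock protein that caps actin filaments and holds unfolding proteins, ranged from 2.67 through 7.7 to 23.1 CPM on control and from 6.67 through 13 to 37.7 CPM on MCD. These ranges overlapped widely. Averaged over time, the diet effect was 0.90 log2 (SE 0.179, adjusted p = 0.000178). The MCD mean was higher at 5 of 6 times and lower at 1, where every MCD library lay below every control library. The test of diet effects differing between times passed (adjusted p = 0.046). Hspbap1, named for its binding to the Hspb1 protein, rose by 0.68 log2 (SE 0.0991, adjusted p = 3.13e-06), from a median of 2.88 to 4.35 CPM. Dnajb1, the J-domain partner of HSP70 in the heat shock response, rose by 0.37 log2 (SE 0.0882, adjusted p = 0.00119), with a higher MCD mean at 6 of 6 times.

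The list called inducible here, 10 cytosolic genes (the constitutive Hspa8 and Hsp90ab1 among them) and the mitochondrial pair Hspd1 and Hspe1, did not move in 1 direction. Of its 12 genes 4 rose (Hspa1a, Hspa1b, Hspb1, Dnajb1), 2 fell and 6 did not pass the test, beside 46.6% of all genes changed, and the median change was 0.06 log2 beside 0.02 over all genes. Hspd1, the mitochondrial HSP60, fell by 0.23 on the log2 scale (SE 0.0473, adjusted p = 0.000286), from a median of 349 to 303 CPM. Hspa4l, an HSP110 relative, fell by 0.25 on the log2 scale (SE 0.0852, adjusted p = 0.0177). With a term for the kind of library, Hspa4l no longer passed (-0.21, adjusted p = 0.0541).

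Among the 6 that did not pass were the most abundant cytosolic chaperones. Hspa8, the constitutive HSC70, stood at 463, 756 and 1598 CPM in the lowest, median and highest control library and at 431, 789 and 1301 CPM on MCD, a difference of 0.02 log2 (SE 0.098, adjusted p = 0.905). The values were -0.04 log2 (SE 0.05) for Hsp90ab1, the constitutive HSP90, 0.09 (SE 0.13) for Hsp90aa1, its inducible form, and -0.06 (SE 0.103) for the class A J-domain protein Dnaja1. For Hspe1, the HSP10 lid of the mitochondrial chamber, the change was -0.09 log2 (SE 0.0516, adjusted p = 0.143), and without the library labelled control CT08 a it passed at -0.13 (adjusted p = 0.0311). Hsph1, the HSP110 exchange factor, gave 0.31 log2 (SE 0.161, adjusted p = 0.121), and it passed with a term for the kind of library (0.42, adjusted p = 0.0392).

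Of 8 genes on the ER list 4 changed, near the 46.6% of all genes: 3 fell (Hsp90b1, Dnajb11 and Dnajc3), Dnajc10 rose, and the median was -0.11 log2. Hsp90b1 encodes GRP94, the HSP90 of the ER, and stood at 544, 840 and 1653 CPM (lowest, median, highest) in control livers and at 382, 545 and 1064 CPM in MCD livers. The MCD mean was lower at 6 of 6 times, every MCD library lay below every control library at 4 of them, and the diet effect was -0.64 log2 (SE 0.11, adjusted p = 3.22e-05). Dnajb11, the J-domain partner that binds ER clients ahead of Hspa5, fell by 0.41 on the log2 scale (SE 0.121, adjusted p = 0.00654), and Dnajc3, also called P58IPK, fell by 0.29 (SE 0.0847, adjusted p = 0.00568).

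Dnajc10, the ER J-domain protein that reduces wrong disulfide bonds, moved the other way, from 22.2, 28.5 and 45.5 CPM on control to 27.7, 39.6 and 47.9 CPM on MCD. Its MCD mean was higher at 6 of 6 times, with a diet effect of 0.40 log2 (SE 0.0601, adjusted p = 5.14e-06). The remaining 4 did not pass: Hspa5 (BiP, the HSP70 of the ER) at -0.20 log2 (SE 0.15, adjusted p = 0.279), Hspa13 at 0.04 (SE 0.0957), Dnajb9 at 0.21 (SE 0.149) and Dnajc1 at -0.02 (SE 0.0388).
The spread of Hspa5 was wide in control livers at CT20, at 392.7, 1438 and 2051 CPM. The same library, control CT20 3, was the lowest of its group in Hsp90b1 (599.5 CPM), Dnajb11 (44.43) and Dnajb9 (27.82), and control CT20 2 was the highest in Hsp90b1 (1653 CPM) and Dnajb11 (172.6). Of the 3 members with an ER stress element in the promoter printed above, Hsp90b1 and Dnajc3 fell and Hspa5 did not pass.

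**Figure D2:**
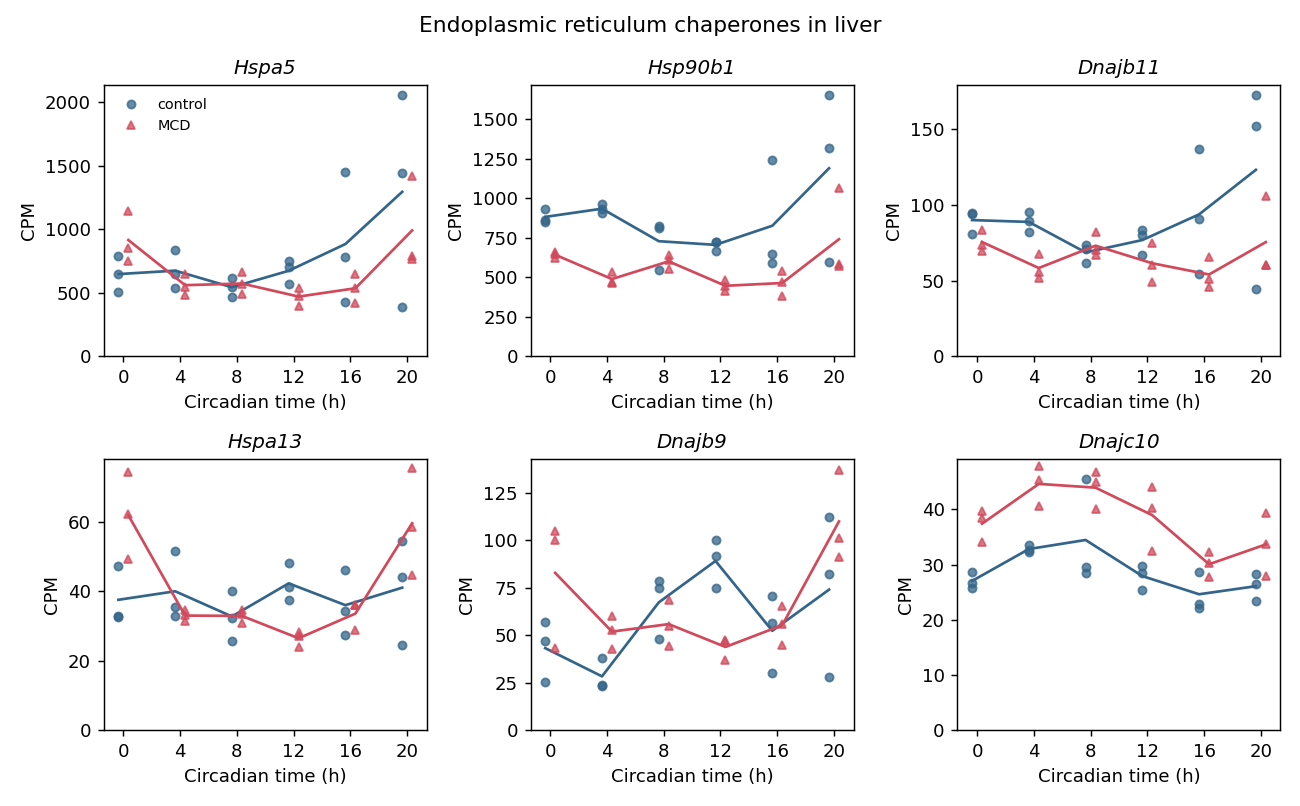
CPM by circadian time of 6 ER chaperone genes in liver, with 1 point per library, 3 per diet and time, and lines through the means. Hsp90b1 on MCD lies below control at every time, and Hspa13 and Dnajb9 on MCD are low at CT12 and high at CT20 and CT0.

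Of 10 mitochondrial members 3 rose and 3 fell, beside 25.3% of all genes higher and 21.2% lower. Dnajc28, a J-domain protein of mitochondria, fell most of all members with a mean of at least 1 CPM. It stood at 7.71, 13.4 and 17.1 CPM on control and at 5.8, 8.38 and 11.9 CPM on MCD, with a lower MCD mean at 6 of 6 times (-0.66 log2, SE 0.0901, adjusted p = 1.45e-06). Hspa9, the mitochondrial HSP70 known as mortalin, rose by 0.16 log2 (adjusted p = 0.000916), and its partner Dnaja3 rose by 0.15 log2 (adjusted p = 0.00108), while Hspd1, counted in the inducible list as well, fell as given above. Dnajc19 of the import motor fell by 0.26 on the log2 scale.

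Counted by class, with the J-domain genes already named among them, 2 of 4 class A, 5 of 11 class B and 14 of 25 class C genes changed, the last 7 higher and 7 lower, beside 46.6% of all genes. Dnajc9, a J-domain protein that also chaperones histones, rose by 0.42 log2 (SE 0.0809, adjusted p = 0.000136), and Dnajc12, the partner of phenylalanine hydroxylase and related enzymes, rose by 0.41 log2 (SE 0.105, adjusted p = 0.0021). Among HSP70 genes Hspa2, best known from the testis, fell by 0.55 on the log2 scale (SE 0.124, adjusted p = 0.000646) at a low level, with medians of 1.6 and 1.1 CPM. Of the 5 tested genes on the list of small heat shock proteins, which leaves out Hspb11, Hspb1 rose as given above. Hspb8, which works with Bag3 in the clearance of misfolded proteins, rose (0.35 log2, adjusted p = 0.000868), and Hspb6 fell (-0.42 log2, SE 0.0978, adjusted p = 0.000976). The fall of Hspb6 is an average over the sexes: its median went from 10.8 to 6.53 CPM in males and from 7.06 to 7.88 CPM in females.

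The factor HSF1 and co-chaperones outside the rule were read from a list of 30 genes. In liver 14 of them changed, beside 46.6% of all genes, 6 higher and 8 lower, with a median of -0.06 log2 beside 0.02 over all genes. Hsf1 itself differed by 0.13 log2 (adjusted p = 0.0451) and Hsf2 by 0.31 (adjusted p = 0.000444). Bag3, an exchange factor of HSP70 induced by HSF1, rose by 0.38 log2 (adjusted p = 0.00642), and Grpel2, the exchange factor of mitochondrial HSP70, rose by 0.71 (adjusted p = 7.08e-07). The log2 change was -0.41 for Trap1, the HSP90 of mitochondria (adjusted p = 7.9e-11), and -0.47 for Hyou1, an ER relative of HSP110 (adjusted p = 0.041).

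Other genes moved with the diet in these livers. All 5 immediate-early genes on the list (Fos, Fosb, Egr1, Arc and Junb), which respond to handling and injury as well as to hormones, were higher on MCD, with a median change of 1.83 log2 and a sum of 21.5 to 154 CPM per library against 10 to 89.6 on control. Macrophage markers rose in 6 of 7 genes (sum 243 to 483 against 186 to 421 CPM), stellate markers in 2 of 5 (75.2 to 380 against 55 to 269 CPM) and endothelial markers in 3 of 4. Erythrocyte genes fell in 4 of 5 (93.7 to 273 against 130 to 452 CPM). Hepatocyte markers fell in 4 of 5, but the median of their sum was 96700 CPM on MCD and 96100 CPM on control. These counts stand beside 25.3% of all genes higher and 21.2% lower. The part of any of these lists in the chaperone results was not tested. With a term for the kind of library the diet effect was 1.26 log2 for Hspa1a, 0.81 for Hspb1 and -0.57 for Hsp90b1. Without the library labelled control CT08 a 39 members were called, 19 higher and 20 lower, beside 10049 genes in all. In whole tissue, a change in the share of a cell type and a change in RNA per cell cannot be told apart.
The scaling between libraries also matters for small changes: with library totals in place of TMM factors the median of all genes moved from 0.02 to 0.27 log2. Then 49 members were called, 45 higher and 4 lower, beside 12173 genes in all, in place of 9426. On that scale Hspa1a (1.47 log2), Hspb1 (1.15), Hsp90b1 (-0.37), Dnajc28 (-0.39) and Hspa2 (-0.30) kept direction and call, Dnajb11 (-0.15), Dnajc3 (-0.04) and Hspb6 (-0.16) were no longer called, and Hspd1 (0.03) and Hspa4l (0.01) changed sign. Of the inducible list Hspa8 (0.28, adjusted p = 0.0137), Hsp90ab1 (0.22, adjusted p = 0.0015), Hsp90aa1 (0.34, adjusted p = 0.031), Hsph1 (0.56, adjusted p = 0.00347) and Hspe1 (0.16, adjusted p = 0.00314) were called higher on that scale.

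The genes of the inducible list peaked by night in control liver. All 12 had a 24 h rhythm on control and all 12 on MCD. The list was chosen with earlier results of these data known, so this count is not an independent test. Over all members 33 of 68 were rhythmic on control (48.5%, beside 17.8% of all genes) and 32 of 68 on MCD (47.1%, beside 28.2%). The rhythm is given as the peak-to-trough range of a fitted 24 h cosine, in log2, with the CT of its peak. On control the 12 genes had a median range of 1.34 log2, beside 0.43 over all genes, and peaks from CT14.3 (Dnaja1) to CT19.8 (Hspb1). On MCD the median range was 0.90 log2, beside 0.47. All 12 were called on control without any 1 library, and 9 to 12 on MCD. Without replicate number 1 in every group, which leaves 1 male and 1 female for most, 4 members were rhythmic on control and 9 on MCD. Over all genes 564 and 2448 then passed, in place of 3611 and 5703. Of the 12, 1 passed on each diet. Without number 2 it was 11 and 10 of the 12, with 18 members rhythmic on control, beside 1260 genes in all.

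Hsph1 had the largest range among the members called rhythmic in control liver, 2.11 log2 with a peak at CT16.5 (adjusted p = 0.000252). Hspb7 (4.90 log2, adjusted p = 0.0672) and Dnajb7 (3.12 log2, adjusted p = 0.109) had larger fitted ranges that did not pass. The 3 control libraries held 20.7, 25 and 27.6 CPM at CT4 and 89.5, 130 and 150 CPM at CT16, with no overlap. On MCD its range was 1.26 log2 with a peak at CT14.9 (adjusted p = 0.0137). Hspa1a ran from 1.74, 2.36 and 3.52 CPM at CT4 to 9.84, 11 and 12.7 CPM at CT12 on control, and from 5.63, 7.66 and 17.7 CPM to 20.5, 26.4 and 28 CPM on MCD. Its rhythm was thus retained on the higher level: the range was 1.79 log2 with a peak at CT14.4 on control (adjusted p = 0.00855) and 1.40 log2 at CT12.8 on MCD (adjusted p = 0.0268). The MCD call was lost without MCD CT00 3 or MCD CT12 3, with an adjusted p of up to 0.101. Hspa1b followed the same course (1.77 log2 at CT14.9 and 1.39 log2 at CT12.8), and its MCD call was lost without any 1 of 7 libraries. Hsp90aa1 had a range of 1.71 log2 at CT17.8 on control and 1.21 log2 at CT14.9 on MCD, and Hspa2, at a low level, 1.46 log2 at CT13.3 and 1.37 log2 at CT11.2.

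**Figure D3:**
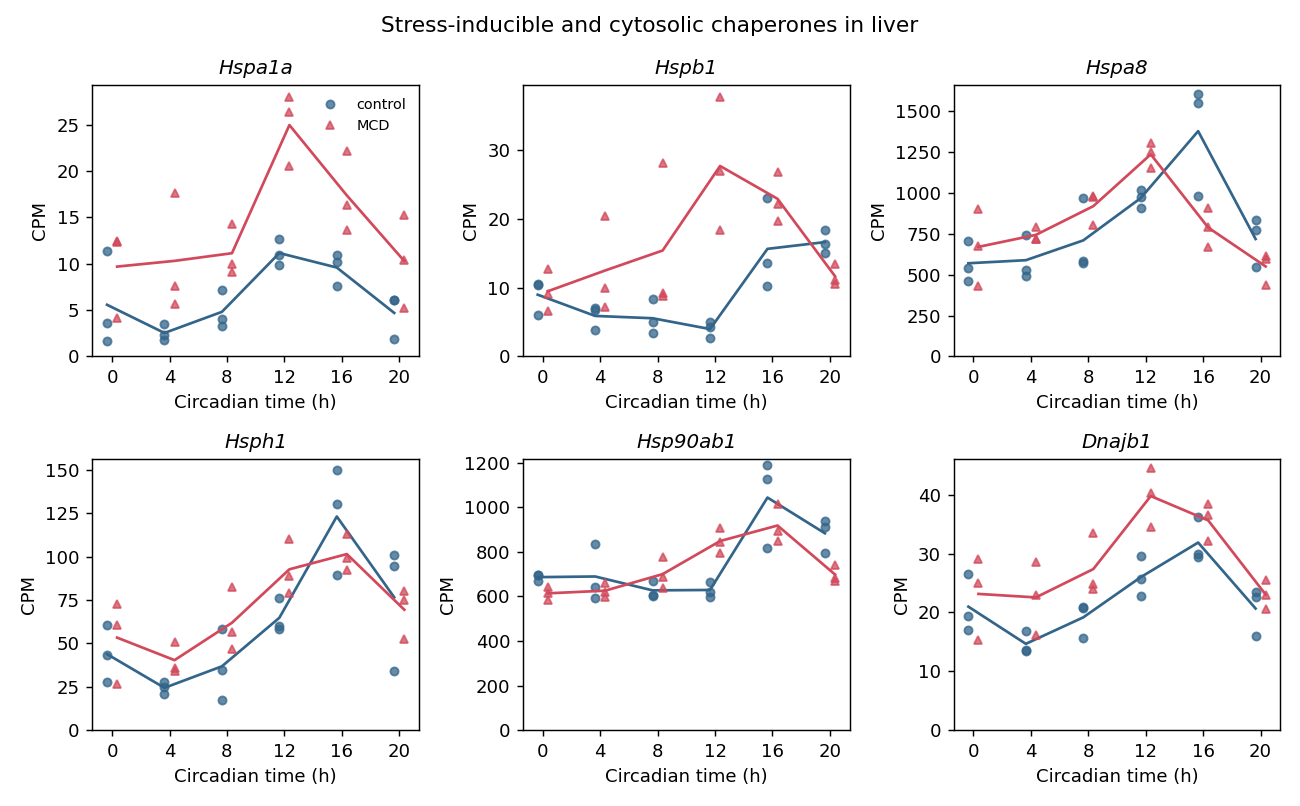
CPM by circadian time of 6 cytosolic chaperone genes in liver, with 1 point per library, 3 per diet and time, and lines through the means. Hspb1 peaks at CT20 on control and at CT12 on MCD, and Hspa1a is higher on MCD at every time.

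Among the 13 members whose rhythm differed between the diets by test, Hspb1 had the widest difference, measured as the range of the cosine fitted to it. At CT12 the control libraries held 2.67, 4.3 and 4.98 CPM and the MCD libraries 18.4, 26.9 and 37.7 CPM, and at CT20 they held 15.1, 16.4 and 18.4 CPM in control livers against 10.5, 11.1 and 13.4 CPM on MCD. All MCD libraries thus lay above control at CT12 and below it at CT20. The fitted peak was at CT19.8 on control (range 1.90 log2, adjusted p = 0.00195; CT19.5 to CT20.2 over fits that each leave out 1 library). On MCD it was at CT12.7 (range 1.48 log2, adjusted p = 0.00858; CT12.3 to CT14.1). The difference between the rhythms had a range of 2.70 log2 (adjusted p = 0.00815), and the test of diet effects differing between times also passed (adjusted p = 0.046).

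Across members the 24 h rhythm differed between the diets for 13 of 68 (19.1%, beside 4.87% of all genes). The main fit called 986 genes in all. The count of members was 7 with the replicate number as a block (651 genes in all) and 7 without number 3 (537). It was 0 without number 1 or 2 in every group, where 5 and 4 genes passed in all. The count fell to 7 or 8 without any 1 of 7 libraries: control CT00 1, CT04 1, CT04 2, CT08 b, CT12 1 or CT16 1, or MCD CT16 2. The calls of Hspb1, Hspa4l, Hsp90ab1, Dnajc30, Dnaja2 and Dnaja3 held without any 1 library, and the other 7 were lost at least once. On the inducible list 6 of 12 differed (Hspb1, Hspa8, Hspa4l, Hsp90ab1, Hspe1 and Hspd1), and 3 to 7 when each library was left out in turn. Hsp90ab1 held 599, 622 and 667 CPM in control livers against 796, 843 and 907 CPM on MCD at CT12, without overlap, and its peak was at CT18.3 on control and CT14.2 on MCD (difference range 0.63 log2, adjusted p = 0.0261). The peak of Hspa4l was at CT18.6 on control and CT15.4 on MCD, and its range was 1.46 and 0.85 log2 (difference range 1.09, adjusted p = 0.0221).

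Hspa8 shows the same order at a high level. At CT16 the control libraries held 980, 1545 and 1598 CPM and the MCD libraries 667, 788 and 904 CPM, and at CT12 control held 907, 975 and 1016 CPM against 1150, 1248 and 1301 CPM on MCD. The groups were apart at both times, in opposite directions. The peak was at CT14.6 on control and CT10.4 on MCD (difference range 1.10 log2, adjusted p = 0.0466). This call is near the threshold: it was lost without any 1 of 26 libraries, with an adjusted p of up to 0.0913, and without the library labelled control CT08 a it was 0.0614. The mitochondrial pair had earlier peaks on MCD as well, Hspd1 at CT9.19 against CT15.4 (difference range 0.57 log2, adjusted p = 0.033, lost without any 1 of 8 libraries) and Hspe1 at CT12.8 against CT16.7 (0.60 log2, adjusted p = 0.0378, lost without any 1 of 13).

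Of the 23 members rhythmic on both diets in liver, 20 peaked earlier on MCD, with a median shift of -2.03 h. Over all 2271 genes rhythmic on both diets 79.7% peaked earlier, with a median of -1.74 h, so the members' shift is near that of the whole set. Leaving out each library in turn moved the members' median between -2.56 and -1.74 h. The 3 that peaked later were Dnajb9, Dnaja3 and Dnajc1. The range was smaller on MCD for 16 of the 23 (69.6%), beside 44.6% of all such genes. In both diets peaks fell mostly between CT12 and CT24, for 29 of 33 rhythmic members on control (87.9%, beside 51% of all rhythmic genes) and 23 of 32 on MCD (71.9%, beside 51.7%).

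**Figure D4:**
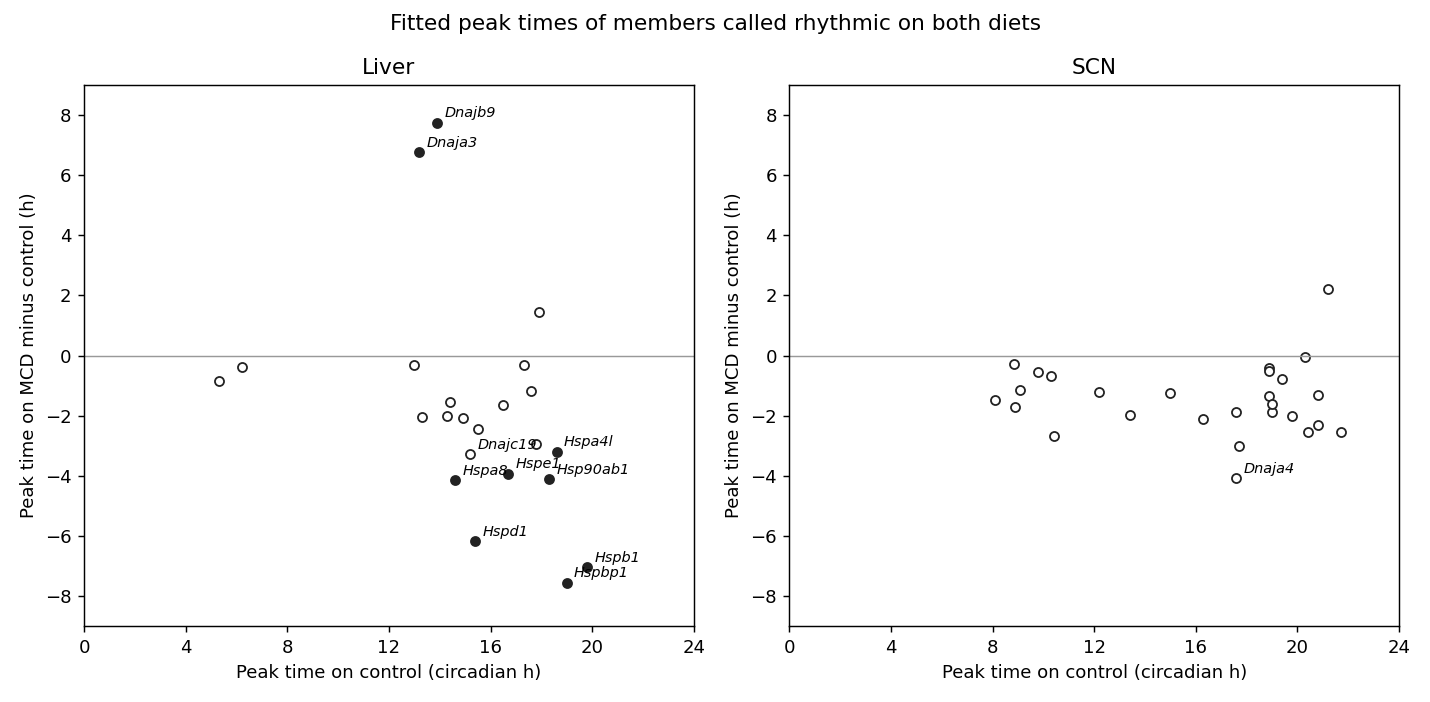
Shift of the peak (MCD minus control, in hours) against peak CT on control for members rhythmic on both diets, in liver and SCN. The horizontal line marks equal peaks, and filled points mark a rhythm that differed between diets at an adjusted p below 0.05. Most points lie below the line (20 of 23 in liver and 26 of 27 in SCN), and Dnajb9 and Dnaja3 lie far above it in liver.

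Among the ER members of the liver, the rhythms of Dnajb9 and Hspa13 differed between the diets. Dnajb9, the ER J-domain protein that restrains the sensor IRE1, held 75, 91.8 and 100 CPM on control at CT12 and 36.8, 47 and 47.7 CPM on MCD. At CT4 the order was the other way, with 23.2, 24 and 37.8 CPM in control livers against 42.9, 52.6 and 60 CPM on MCD, again with no overlap. Its peak was at CT13.9 on control (adjusted p = 0.0343) and CT21.7 on MCD (adjusted p = 0.0214), and the rhythms differed with a range of 1.85 log2 (adjusted p = 0.0277). That last call was lost without control CT00 1, MCD CT00 1 or MCD CT12 1, with an adjusted p of up to 0.0603, and the control and MCD rhythm calls were lost without any 1 of 8 and of 6 libraries.

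Hspa13, an HSP70 of the ER, had a range of 0.10 log2 on control (adjusted p = 0.93) and 1.21 log2 on MCD with a peak at CT22.3 (adjusted p = 0.000147). On MCD it went from 23.9, 27.2 and 28.3 CPM at CT12 to 49.1, 62.1 and 74.3 CPM at CT0, while control held 37.4, 41.2 and 48.2 and then 32.5, 32.9 and 47.1 CPM. The diets were apart at both times, in opposite directions. The rhythms differed with a range of 1.13 log2 (adjusted p = 0.0359), a call lost without any 1 of 16 libraries and, at 0.0527, without the library labelled control CT08 a. For Hspa5 the peak was at CT22.3 on MCD (range 1.05 log2, adjusted p = 0.0297, lost without any 1 of 6 libraries), and its control range of 0.91 log2 did not pass (adjusted p = 0.0896). Over the ER list 3 of 8 were rhythmic on control (beside 17.8% of all genes), but 1 of 8 without control CT04 2, CT08 a or CT16 1, and 5 of 8 were on MCD (beside 28.2%), where the count was 3 to 5 without any 1 library. Hsp90b1, Dnajb11 and Dnajc3 passed on neither diet.

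Members of other compartments gained or shifted a rhythm too. Dnajc30, a J-domain protein of mitochondria, had a range of 0.17 log2 on control and 0.85 log2 on MCD with a peak at CT19.9, and the rhythms differed (range 0.99 log2, adjusted p = 0.00433). At CT16 its MCD libraries held 23.7, 25.1 and 27.1 CPM against 17, 18.5 and 18.7 CPM on control, without overlap. For Dnajc9 the control libraries stayed between 4.09 and 6.87 CPM, while on MCD they went from 3.54, 4.26 and 4.81 CPM at CT0 to 8.2, 9.61 and 10.9 CPM at CT12 (MCD range 0.98 log2, peak CT12). Its difference passed narrowly (range 0.90 log2, adjusted p = 0.0469) and was lost without any 1 of 26 libraries. Dnaja3 peaked at CT13.2 on control and CT20 on MCD (adjusted p of the difference 0.0107).
A single test over all times asked whether the diet effect depended on time in any shape. It passed for 3 of 68 members (beside 0.909% of all genes): Dnajc30 (adjusted p = 0.0372), Dnaja3 (0.0434) and Hspb1. The count was 14 in DESeq2, which called 1346 genes in all where edgeR called 184. It was 1 with library totals (143 genes in all) and 1 with the replicate number as a block (115). Without number 1 or 2 it was 0, with 1 and 0 genes in all, and without number 3 it was 1 (91). A 12 h component, known for some ER chaperones in mouse liver, passed for 0 members in edgeR, beside 0.0198% of all genes. In DESeq2 it passed for 2, beside 107 genes in all. An unadjusted p below 0.05 in edgeR was reached by 9 of the 68 members, beside 1445 of all 20249 genes.

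Of the 30 genes of the HSF1 axis list, 10 were rhythmic in control liver, beside 17.8% of all genes. Grpel1 peaked at CT11.25 and the other 9 between CT12.7 and CT18.5, among them the HSP70-HSP90 adaptor Stip1 (range 1.11 log2, peak CT17.8), the HSP90 partners Fkbp4 (1.00, CT18.5) and Ahsa1 (0.63, CT17.6), and Bag3 (1.01, CT16.8). On MCD 12 were rhythmic, beside 28.2% of all genes, and 7 of them peaked by day: Grpel1, the kinase adaptor Cdc37 and the subunits Cct2, Cct4, Cct5, Cct6a and Cct7 of the cytosolic chaperonin, from CT3.94 (Grpel1) to CT9.76 (Cct5). The other 5 peaked by night, at CT14.7 for Stip1 and Ahsa1, CT15.4 for Fkbp4 and Ahsa2 and CT13.3 for Bag1. Bag3 did not pass on MCD (range 0.32 log2, adjusted p = 0.527). The rhythm difference passed for 3 of the 30 (Cct7, Grpel1 and Ptges3), beside 4.87% of all genes.

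Sex, which the labels tie to replicate number 3, changed 3 of 68 members in liver (beside 9.44% of all genes, 5.17% higher in females and 4.27% lower), and the diet effect differed between sexes for 1 (beside 1.77%, 0.914% with a higher effect in females). That gene was Hspb6, the small heat shock protein HSP20. In males it stood at 8.38, 10.8 and 13.5 CPM (lowest, median, highest of 12) on control and at 4.75, 6.53 and 8.84 CPM on MCD. In females it stood at 6.32, 7.06 and 7.89 CPM (of 6) on control and at 6.26, 7.88 and 9.2 CPM on MCD. Male control livers were thus all above female control livers, which no longer held on MCD, and the diet effect was higher in females by 0.82 log2 (SE 0.133, adjusted p = 0.00117). Without number 2 this call was lost (0.90, adjusted p = 0.0768), and 1 member in place of 3 differed by sex. The 3 genes that differed by sex were Hspa2, higher in females by 0.66 log2 (SE 0.129, adjusted p = 0.00111), and Dnaja3 (-0.15, adjusted p = 0.00643) and Hspa9 (-0.13, adjusted p = 0.0306), both lower.

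In SCN no member's mean level passed the test for the diet. The count was 0 of 67 in edgeR and 0 in DESeq2, beside 0.0635% of all 15759 genes in edgeR. An unadjusted p below 0.05 was reached by 746 of all genes and by 2 members: Dnajb13, a protein of motile cilia and sperm tails (-0.41 log2, adjusted p = 0.614), and Dnajc4 (-0.17, adjusted p = 0.97). Hspa1a stood at 4.22, 8.83 and 29.8 CPM on control and at 3.43, 8.13 and 39.3 CPM on MCD (lowest, median, highest), a difference of -0.07 log2 (SE 0.205). The ranges overlapped almost fully, and the highest library of each diet was taken at CT20. The differences were -0.17 log2 (SE 0.155) for Hspb1, -0.02 (SE 0.0399) for Hsp90b1 and 0.03 (SE 0.0617) for Dnajb1.

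The diet effect itself differed between the tissues for 27 of 67 members (beside 34.7% of 14491 genes in both tables), 17 higher in liver (18.9% of all) and 10 lower (15.8%). With library totals 29 were called, 27 higher and 2 lower, as the median gene moved to 0.17 log2 and 6140 genes passed in all, in place of 5025. Without number 1 the count was 14, beside 2941 genes in all. This model treated all libraries as independent, although liver and brain were dissected at the same point of the protocol and may come from the same mice, which was not tested. The difference, liver minus SCN, was 1.29 log2 for Hspa1a (SE 0.289, adjusted p = 0.000385), 1.11 for Hspa1b (SE 0.298, adjusted p = 0.00278; 0.0533 without number 3) and 1.05 for Hspb1 (SE 0.236, adjusted p = 0.000397). It was -0.63 for Dnajc28 (SE 0.113, adjusted p = 1.89e-05) and -0.62 for Hsp90b1 (SE 0.119, adjusted p = 5e-05). Immediate-early genes, which were higher in 5 of 5 cases in MCD liver, passed in 0 of 5 cases for the diet in SCN.

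The rhythm of cytosolic chaperones was also present in SCN, with later fitted peaks than in control liver for most of the inducible list. Of 67 members 30 were rhythmic on control (44.8%, beside 15.1% of all genes) and 31 on MCD (46.3%, beside 16.1%). The control count was 16 with the replicate block, 14 without number 1 and 17 without number 2. Over all genes these fits called 1248, 1029 and 811, in place of 2378. The MCD count was 15 without number 1 and 12 without number 2, beside 1639 and 775 genes in all, in place of 2544. All 12 genes of the inducible list were rhythmic on both diets, with a median range of 0.70 log2 on control and 0.81 on MCD, beside 0.30 and 0.31 over all genes. Here too the list was chosen with earlier results of these data known. Leaving out each library in turn kept 10 to 12 of the 12 on control and 11 or 12 on MCD. The difference of peak hour between the tissues was not tested.

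Among the members rhythmic in control SCN, Dnajb1 had the lowest adjusted p. Control libraries held 59.6, 60.8 and 64.3 CPM at CT4 and 155, 155 and 186 CPM at CT16, with no overlap (range 1.27 log2, peak CT17.7, adjusted p = 3.79e-08). On MCD the range was 1.03 log2 and the peak CT14.7 (adjusted p = 1.81e-06). Hsph1 went from 196, 235 and 239 CPM at CT4 to 347, 393 and 526 CPM at CT16 on control (range 1.04 log2, peak CT19, adjusted p = 3.28e-07), and on MCD its peak was at CT17.4. Hspa8, at 1079, 1197 and 1272 CPM at CT8 and 1642, 1658 and 2176 CPM at CT16 on control, had a range of 0.73 log2 with a peak at CT19 (adjusted p = 9.37e-05).
For Hsp90aa1 the range was 0.67 log2 on control (peak CT19.8) and 0.81 on MCD (CT17.8). The inducible HSP70 genes had the larger ranges at lower levels: Hspa1b 2.50 log2 on control (peak CT18.9, adjusted p = 0.000886) and 2.21 on MCD, and Hspa1a 1.66 (peak CT19.4, adjusted p = 0.0212) and 1.95. Hspa2 had a range of 0.72 log2 on control (peak CT18.7, adjusted p = 0.00367; 0.137 with the replicate block). The control call of Hspa1a was lost without control CT08 a, CT08 b or CT20 1, with an adjusted p of up to 0.132.

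**Figure D5:**
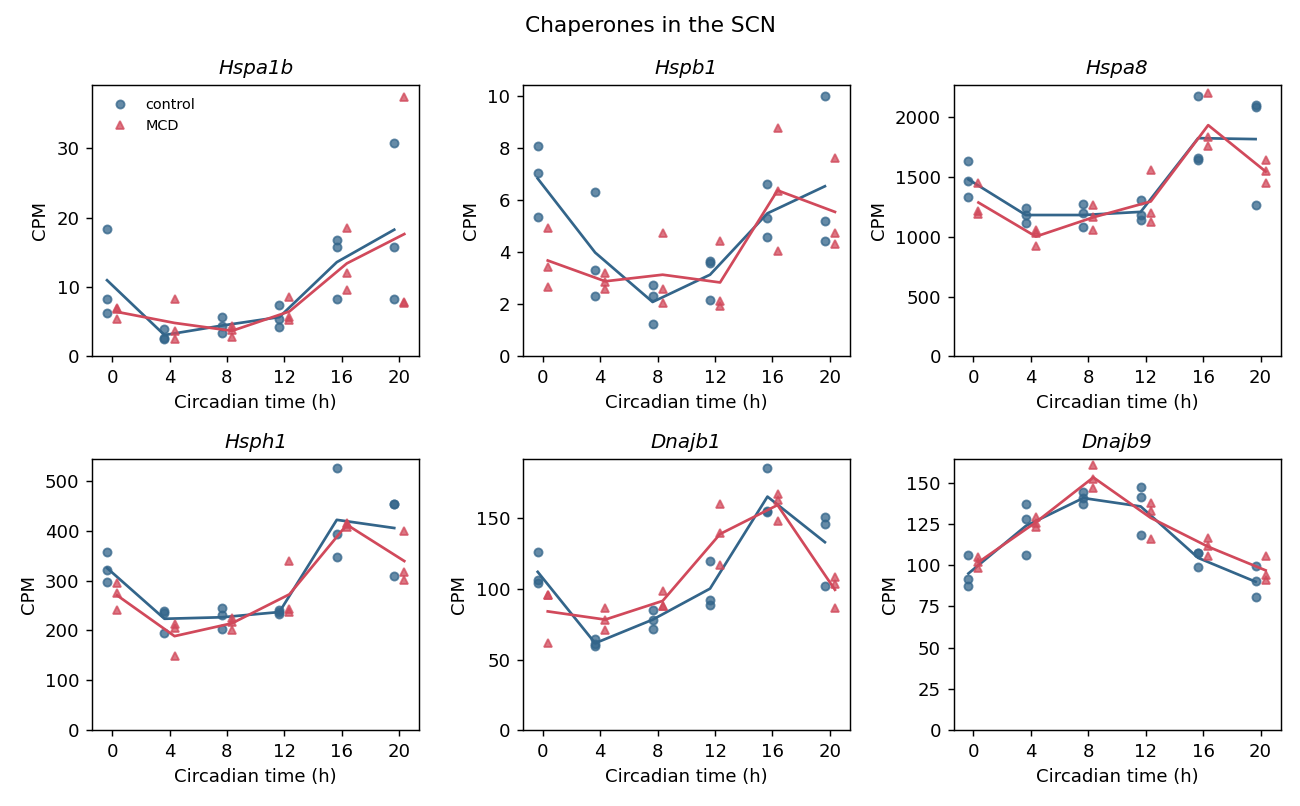
CPM by circadian time of 6 chaperone genes in SCN, with 1 point per library, 3 per diet and time, and lines through the means. Hspa8, Hsph1 and Dnajb1 are highest at CT16 or CT20 on both diets, whereas Dnajb9 is highest by day.

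Of the small heat shock genes in SCN, Hspb1, Hspb6 and Hspb8 were rhythmic on both diets and Hspb7 on control. Hspb1 peaked at CT20.8 on control (range 1.71 log2, adjusted p = 0.00095) and CT18.5 on MCD (1.18 log2, adjusted p = 0.0241, lost without any 1 of 4 libraries), and Hspb8 at CT21.7 (0.71 log2) and CT19.2 (0.65 log2). Hspb6 peaked at CT21.2 on control (adjusted p = 0.0179) and at CT23.4 on MCD (adjusted p = 0.0431), the 1 member of the 27 rhythmic on both diets whose peak was later on MCD. Hspb7, known from heart and smooth muscle, had the largest fitted range of all members on control, 2.64 log2 with a peak at CT22.3 (adjusted p = 0.0159), at 0.51 to 12.8 CPM. That call was lost without control CT00 2, CT12 1 or CT20 1, with an adjusted p of up to 0.0649, and Hspb7 was not rhythmic on MCD. Genes of fibroblasts and vessel walls were rhythmic in the same control libraries in 4 of 5 cases (Col1a1 with a peak at CT22.2, Col1a2 CT20.9, Des CT23.1 and Acta2 CT0.998) and in 0 of 5 on MCD, with a sum of 21.7 to 89.3 CPM per control library and 21.5 to 78.7 on MCD. Immediate-early genes were rhythmic in 4 of 5 cases on control and 2 of 5 on MCD. Over all genes 15.1% were rhythmic on control and 16.1% on MCD. The part of either list in the rhythms of small heat shock genes was not tested.

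Of the ER list in SCN, 5 of 8 genes were rhythmic on both diets (beside 15.1% of all genes on control and 16.1% on MCD), with fitted peaks from CT8.56 (Dnajb9 on MCD) to CT15 (Hspa5 on control); their phases were not tested against those of cytosolic members. Dnajb9 held 137, 141 and 144 CPM at CT8 and 80.4, 90.1 and 99.3 CPM at CT20 on control, with no overlap. Its peak was at CT8.85 on control (range 0.70 log2, adjusted p = 5.78e-07) and CT8.56 on MCD (0.62 log2, adjusted p = 4.4e-06). Whether this differs from liver, where the peaks were CT13.9 and CT21.7, was not tested. Hspa13 peaked at CT9.78 and CT9.23 on control and MCD, Dnajc10 at CT10.3 and CT9.6, Dnajc3 at CT13.4 and CT11.5, and Hspa5 at CT15 and CT13.7. Dnajc27, a J-domain protein with a GTPase fold, also peaked by day (CT8.88 and CT7.17).

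The diets' rhythms differed in SCN for 0 of 67 members in edgeR, beside 0.0127% of all genes, and for 1 in DESeq2. An unadjusted p below 0.05 in edgeR was reached by 596 of all 15759 genes. The 4 members among them were Dnajb1 (range of the difference 0.90 log2, adjusted p = 0.278), Dnaja4 (0.51), Hsp90aa1 (0.40) and Hsph1 (0.44). Of the 27 members rhythmic on both diets, 26 peaked earlier on MCD (96.3%, beside 83.6% of 1556 genes), with a median of -1.48 h beside -0.945 h over all such genes. On the HSF1 axis list 13 of 30 genes were rhythmic on each diet, beside 15.1% of all genes on control and 16.1% on MCD, including Hsf1 (0.46 log2, peak CT18.2 on control) and Stip1 (0.84 log2, CT18.5).

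On control diet the levels of most members differed between liver and SCN, as did those of most genes: 57 of 67 members (beside 90.4% of all), 23 higher in liver (44.1% of all) and 34 lower (46.3%). The widest gap was that of Dnajc6, the neuronal J-domain protein auxilin, which strips clathrin from synaptic vesicles, with a mean of 0.0657 CPM in control liver and 170 to 270 CPM in control SCN (-10.7 log2, SE 0.168). Dnajc27 (-6.29 log2), Dnajb3 (-5.47), Hspa12a (-4.21), Hspb7 (-3.79), Dnajb13 (-3.63), Hspa2 (-3.59) and Dnajc9 (-3.02) were also lower in liver, where Dnajb3 had a mean of 0.0466 CPM and Dnajb13 of 0.239 CPM on control. Higher in liver were Hspb8 (3.42 log2), Dnajc25 (3.04) and the ER and mitochondrial chaperones Dnajc3 (2.50), Hspa9 (2.04), Dnajb11 (1.88), Hspd1 (1.81), Hspa5 (1.63) and Hsp90b1 (1.42). In the ER list 5 of 8 were higher and 2 lower in liver, and among mitochondrial members 6 of 10 were higher and 2 lower. With library totals, Dnajb9 of the ER list (-0.68) and the mitochondrial members Dnajc28 (-0.55) and Dnajc4 (-0.69) were called lower as well, and Hspe1 (-0.06, adjusted p = 0.316) was no longer called.
Cytosolic chaperones went both ways: Hsp90aa1 (-1.86 log2), Hsph1 (-1.53) and Dnajb1 (-1.31) were lower in liver, Hspb1 (2.02) and Hspa1b (1.81) were higher, and Hspa8 gave 0.06 (adjusted p = 0.558). With library totals in place of TMM factors the median gene moved from -0.04 to -0.75 log2. Then 62 members were called, 16 higher and 46 lower in liver, beside 13180 genes in all, in place of 13101. On that scale Hspa8 (-0.65) and Hsp90ab1 (-0.51, against 0.19) were lower in liver. Hspa1a gave -0.23 (adjusted p = 0.341) against 0.47 (adjusted p = 0.0472). Apart from these 3 and from Dnajb9, Dnajc28, Dnajc4 and Hspe1, the genes named in this comparison kept their direction. Per kilobase of exon, the most abundant members of control liver were Hsp90ab1 at 253 CPM per kb, Hsp90b1 at 218, Hspa8 at 191 and Hspa5 at 186, and those of control SCN were Hsp90ab1 at 413, Hspa8 at 337 and Hsp90aa1 at 262. Hspa1a, by contrast, stood at 2.16 CPM per kb in control liver.

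Some members cannot be counted cleanly. Of the 70, 24 overlap an exon on the opposite strand in the GENCODE M21 annotation, among them Hspd1 with Hspe1, Hspa1a with Gm20481 and Hsp90b1 with 1810014B01Rik, and whether the counting used strand is not given in the sources used here. The left-out pseudogenes of Hspd1 could share its reads.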

How the data were processed

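Stranded libraries of polyadenylated RNA were sequenced from 36 liver and 36 SCN samples. The authors deposited raw counts per gene, 1 table per tissue; the submitters' processing notes name Trimmomatic, HISAT2, StringTie, DESeq2 and the genome GRCm39, and give no versions; the strand setting is unknown. The 72 deposited files of counts per exon bin were not used. Within each tissue 2 columns carry the same name for the control males at CT8; they entered their group without a number and are called a and b. Pairs of libraries of a group differed by more than sampling noise (chi-square per degree of freedom at least 29.3 in liver and 24.1 in SCN). That does not show whether 2 libraries came from 1 mouse, and each was counted as its own sample.

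Counts were analysed with edgeR 4.0.16 in R 4.3.3: filterByExpr with a minimum count of 10, TMM scaling, and the quasi-likelihood F test with robust dispersions, in a model of the 12 groups of diet and time plus sex for each tissue, with p-values adjusted by Benjamini-Hochberg over all genes tested and a threshold of 0.05. The diet effect is the mean over times of MCD minus control, on the log2 scale. A 24 h rhythm means a nonzero cosine and sine contrast over the 6 time means. The tissues were compared in 1 model of all 72 libraries over 14491 genes. CPM values use TMM-scaled totals within a tissue. The code was tested on simulated data. The text names the list of inducible chaperones and the ER list. It also names, for each comparison, up to 10 called members with the largest change and a mean of at least 1 CPM. Comparisons of the tissues took that mean over both of them. The genes given at an unadjusted p, those of the HSF1 axis and the markers stand beside them. The members and lists were chosen with earlier results of these data known.

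Alternatives were DESeq2 1.42.0, library totals, no filter, the replicate number as a block, leaving out replicate numbers or single libraries, and a term for the kind of liver library. Leaving the library labelled control CT08 a out of the comparison of tissues was added after seeing the data.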

Additional observations from a re-analysis of the deposited data

Results flagged for a closer look

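Of the members named by size, 21 values met a rule for effects that differ between groups by a test of the difference itself. For 10 genes the diet effect differed between the tissues (liver minus SCN, log2): Hspa1a 1.29, Dnajb13 1.15, Hspa1b 1.11, Hspb1 1.05, Hspbap1 0.73, Dnajc28 -0.63, Hsp90b1 -0.62, Hspa2 -0.49, Dnajc9 0.42 and Dnajc10 0.36. Dnajb13 met the mean of at least 1 CPM only through SCN: its mean over both tissues was 1.86 CPM, and its liver group means were 0.082 to 0.673 CPM. Its value had an SE of 0.46 and an adjusted p of 0.0463, the others an adjusted p of 0.0055 or less. Hspa2 was no longer called with library totals (-0.33, adjusted p = 0.0533) or without replicate number 1 (-0.39, adjusted p = 0.104), Hspa1b without number 3 (0.89, adjusted p = 0.0533), and Dnajb13 without number 1 (0.99, adjusted p = 0.214) or 3 (1.92, adjusted p = 0.0578). For Hspb6 the diet effect in liver differed between the sexes by 0.82 log2 (female minus male).

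For 10 genes the 24 h rhythm in liver differed between the diets, given as the range of the difference in log2: Hspb1 2.70, Dnajb9 1.85, Hspa13 1.13, Hspa8 1.10, Hspa4l 1.09, Dnajc30 0.99, Dnajc9 0.90, Hsp90ab1 0.63, Hspe1 0.60 and Hspd1 0.57. Of these, 4 held without any 1 library (Hspb1, Hspa4l, Dnajc30 and Hsp90ab1).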

How the results depend on the processing

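Most results kept their side of the threshold: of the single-gene values under alternatives 5838 kept direction and call, 341 lost the call, 37 gained it and 28 changed sign, and of the counts 406 stayed within 1.5 times and 32 moved. Within a tissue, replicate numbers did not pair the libraries of the 2 diets at a time by the rule of every pair over 0.1: same-numbered libraries correlated between -0.15 and 0.29 in liver (of 15 pairs, 5 were over 0.1 and 7 control libraries correlated best with their own number) and -0.17 and 0.25 in SCN. With the number as a replicate block, which drops the unnumbered controls, 33 members were called for the diet in liver, 1 in place of 3 for diet by time, 7 in place of 13 for the rhythm difference, and 16 in place of 30 for the SCN rhythm on control. Over all genes these fits called 9368, 115, 651 and 1248, in place of 9426, 184, 986 and 2378. No such fit exists for sex, since all females are number 3.

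DESeq2 called 14 members for diet by time, 2 for the 12 h component, 5 for sex, 2 for sex by diet and 1 for the SCN rhythm difference. Over all genes it called 1346, 107, 2459, 741 and 7, where edgeR called 184, 4, 1911, 359 and 2. Library totals gave 1 for diet by time. Leaving out 1 replicate number gave 0 to 1 for diet by time, 1 to 2 for sex, 0 to 1 for sex by diet and 14 to 19 for the tissue difference of the diet effect. Leaving out 1 number or 1 library gave 4 to 37 for the liver rhythm on control, 9 to 34 on MCD, 0 to 14 for the rhythm difference, and 14 to 31 and 12 to 34 for the SCN rhythms on control and MCD. All these fits hold fewer samples, and those without 1 number also called fewer genes in all. Library totals called 29 for the tissue difference of the diet effect, 27 higher and 2 lower.

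Signs changed for diet effects that did not pass, apart from Hspd1 and Hspa4l. With library totals, Hspd1 (0.0298), Hspa4l (0.00812), Hspe1 (0.163), Hsp90ab1 (0.219), Dnaja1 (0.194), Hspa5 (0.055) and Dnajc1 (0.242) turned positive. With a term for the kind of library Dnaja1 (0.00755) and Dnajc1 (0.0147) did. Hspa8 was -0.0604 with the block and -0.0124 when the library labelled control CT08 a was left out. With 1 number or library removed the ranges were -0.0361 to 0.114 for Hspa8, -0.11 to 0.00311 for Dnaja1, -0.0471 to 0.0964 for Hspa13, -0.0519 to 0.00212 for Dnajc1 and -0.0316 to 0.579 for Hspa1l in SCN. The cause was not tested.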
